A study of Mus musculus with 12 samples.

Results

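The genes described here are 8 that move or bind manganese, zinc and iron in hepatocytes: the exporters Slc30a10 and Slc30a1, the importers Slc39a4, Slc39a8, Slc39a14 and Slc11a2, and the metallothioneins Mt1 and Mt2. All 8 were found among the 46095 genes of the count table, by symbol, and all 8 were among the 14666 genes with enough counts to be tested. They were read in RNA sequencing libraries of liver tumours (hepatocellular carcinoma, HCC) from mice that had received diethylnitrosamine (DEN), a carcinogen that hepatocytes turn into a DNA-alkylating agent. The labels put 7 libraries in Pck1-null mice (KO) and 5 in wild-type mice (WT), all after DEN. Pck1 encodes the cytosolic phosphoenolpyruvate carboxykinase of gluconeogenesis. The labels give no strain, sex, age, allele or Cre driver. Nor do they tie each library to its own mouse. The p-values cover no more than the spread between these libraries, some of which may be technical, although libraries of a group differed beyond counting noise.

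Hepatocytes take manganese, zinc and iron that is not bound to transferrin from the blood through transporters of the ZIP (Slc39) family, of which Slc39a14 is the main hepatic one. Slc30a10 stands at the other end of the route and passes manganese into bile, the body's way of disposing of an excess. It belongs to the ZnT (Slc30) family, whose other members move zinc out of the cytosol. Metallothioneins are small cysteine-rich proteins that hold zinc and copper in the cytosol, and their genes are switched on by zinc through the transcription factor Mtf1 and by inflammatory and glucocorticoid signals.

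Slc30a10 was the reason for the choice of these genes. By p it ranked 4 of 14666 in the comparison of KO with WT (edgeR quasi-likelihood test across all genes, unadjusted p = 3.04e-05). Its difference is therefore given as a description, with no test. The other 7 were chosen as relatives by function. The manganese and zinc exporters lie on chromosome 1, Slc30a10 from 185454848 to 185468762 and Slc30a1 from 191906767 to 191913247. Mt2 (94172664 to 94173568) and Mt1 (94179082 to 94180327) are neighbours on chromosome 8, both on the plus strand with 5513 bases between them. Slc39a4 (76612383 to 76617384) and Slc11a2 (100387898 to 100425072) lie on chromosome 15, Slc39a8 (135825279 to 135888572) on chromosome 3 and Slc39a14 (70303469 to 70351425) on chromosome 14. These positions cover the whole annotated genes (GENCODE M21, GRCm38, the assembly of the mm10 build used for alignment).

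The promoters of the metallothioneins and of both exporters are shown because Mt1, Mt2 and Slc30a1 are known targets of Mtf1, which binds metal response elements with the core TGCNCNC. Capitals mark each match to that core on either strand, and overlapping matches run together. Each stretch holds 250 bases before and 50 after the gene start in RefSeq.
Mt2 promoter (GRCm38.p6, chr8:94172368-94172667, plus strand): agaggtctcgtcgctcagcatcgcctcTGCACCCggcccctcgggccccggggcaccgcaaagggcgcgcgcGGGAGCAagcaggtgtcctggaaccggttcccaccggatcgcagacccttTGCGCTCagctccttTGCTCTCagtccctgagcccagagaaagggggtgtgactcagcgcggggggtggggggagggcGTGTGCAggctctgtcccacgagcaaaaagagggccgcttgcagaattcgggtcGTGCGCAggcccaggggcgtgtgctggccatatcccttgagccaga
Mt1 promoter (GRCm38.p6, chr8:94178839-94179138, plus strand): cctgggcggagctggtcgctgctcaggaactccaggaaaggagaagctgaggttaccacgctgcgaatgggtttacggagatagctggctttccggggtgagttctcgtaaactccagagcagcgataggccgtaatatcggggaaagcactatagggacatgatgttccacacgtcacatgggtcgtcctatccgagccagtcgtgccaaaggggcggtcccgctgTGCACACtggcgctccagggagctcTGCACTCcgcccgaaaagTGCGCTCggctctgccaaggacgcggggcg
Slc30a10 promoter (GRCm38.p6, chr1:185454598-185454897, plus strand): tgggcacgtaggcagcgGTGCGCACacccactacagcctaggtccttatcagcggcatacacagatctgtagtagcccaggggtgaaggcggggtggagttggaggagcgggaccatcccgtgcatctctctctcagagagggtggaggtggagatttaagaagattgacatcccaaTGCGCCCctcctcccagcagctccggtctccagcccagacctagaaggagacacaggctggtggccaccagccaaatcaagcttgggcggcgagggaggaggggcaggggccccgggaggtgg
Slc30a1 promoter (GRCm38.p6, chr1:191906531-191906830, plus strand): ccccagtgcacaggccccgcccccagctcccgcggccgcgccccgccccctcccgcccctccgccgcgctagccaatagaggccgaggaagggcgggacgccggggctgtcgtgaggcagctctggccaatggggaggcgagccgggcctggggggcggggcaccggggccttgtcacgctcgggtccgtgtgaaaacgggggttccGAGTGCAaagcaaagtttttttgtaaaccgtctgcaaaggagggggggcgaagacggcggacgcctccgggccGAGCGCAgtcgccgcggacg

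The core occurred 6 times in the Mt2 stretch, 3 times in that of Mt1, 3 times in that of Slc30a10, where 2 of the matches overlap on opposite strands, and 2 times in that of Slc30a1. Of 32851 promoter stretches of the same length in the RefSeq table, 51.0% held at least 1 match, 7.1% at least 3 and 0.697% at least 5. The RefSeq table had a stretch for 5 of the 8 genes. Slc39a8 has 2 entries, with 0 matches and 1 match, whose sequences are not shown. Slc39a4, Slc39a14 and Slc11a2 have none. A match describes letters only and says nothing of binding.

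Library depth, tissue and the targeted gene were checked before the values were read. The total count was 17462102 to 23663506 in 7 libraries (4 KO, 3 WT), called the shallower ones, and 43071365 to 46747125 in 5 (3 KO, 2 WT), called the deeper ones. The summed level of 8 hepatocyte markers was 76700 to 204000 CPM in KO and 75600 to 250000 CPM in WT (CPM is the read count scaled to a library size common to all libraries, with TMM factors). Pck1 itself was at 111 to 1170 CPM in KO and 1060 to 5820 CPM in WT. KO replicate 3 thus lay above WT replicate 4. Xist exceeded 10 CPM in 5 of 7 KO and 1 of 5 WT libraries, so that sex, as read from Xist, and genotype are partly confounded.

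Per length, the metallothioneins stood far above the transporters in KO, and Slc30a10 was the lowest of the 8 genes in both genotypes. Levels per length are CPM divided by the length in kb of the longest annotated coding transcript. Mt2 averaged 753 ± 556 CPM per kb in KO and 398 ± 301 in WT (SD, n = 7 and 5, here and in this paragraph), and Mt1 averaged 532 ± 384 in KO and 343 ± 263 in WT. The order between these neighbours depends on the length used, since the annotated coding transcripts of Mt1 run from 549 to 1085 bases. Slc39a4 followed at 84.1 ± 44.0 CPM per kb in KO and 82.4 ± 45.9 in WT, and Slc39a14 at 40.2 ± 15.4 in KO and 42.7 ± 13.6 in WT. In WT the range of Mt1 overlapped that of Slc39a4, and Slc39a4 overlapped Slc39a14 in both genotypes. Slc30a1 (12.6 ± 1.43 CPM per kb in KO and 12.9 ± 3.76 in WT) and Slc11a2 (13.8 ± 7.75 in KO and 10.8 ± 1.32 in WT) did not differ beyond their spread. Slc39a8 came next at 6.85 ± 1.03 CPM per kb in KO and 8.57 ± 2.26 in WT. Slc30a10 closed the order at 1.91 ± 0.451 CPM per kb in KO and 6.34 ± 2.93 in WT. In KO every library had less Slc30a10 than Slc39a8 per length, with ranges that did not meet, whereas in WT 3 of 5 libraries did and the ranges overlapped.

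Slc30a10, the manganese exporter, had 7.8 to 16.1 CPM in KO with a median of 11.4, against 32.3, 22.1, 56.0, 54.1 and 20.4 CPM in WT replicates 1 to 5. The highest KO library, replicate 5, lay below the lowest WT library. The fitted log2 fold change was -1.73 ± 0.27 (SE), a 3.31-fold lower level in KO. WT libraries spread more widely, with the highest at 2.74 times the lowest, against 2.07 times in KO. In bulk tumour RNA, fewer cells that express a gene and less RNA per cell cannot be told apart. Beside it, summed markers of sinusoidal endothelium were at 81.4 to 381 CPM in KO (median 157) and 236 to 434 CPM in WT (median 301). KO replicate 6, at 381 CPM, was the only KO library not below all WT libraries. Summed markers of stellate cells and fibroblasts were at 128 to 436 CPM in KO and 168 to 661 CPM in WT. Of 6 cholangiocyte markers, of the bile duct, the 5 without Spp1 summed to 7.53 to 111 CPM in KO and 26.0 to 87.2 CPM in WT. Spp1, which other cells of a tumour also express, had 18.1 to 4250 CPM in KO and 123 to 884 CPM in WT. The part of these cells in the Slc30a10 level was not tested.

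The Slc30a10 difference is given for each depth class as well, again as a description. The 3 deeper KO libraries held 10.9 to 16.1 CPM and the 2 deeper WT libraries 20.4 to 22.1 CPM, a fitted log2 fold change of -0.74 ± 0.23 (SE). In the 4 shallower KO libraries the level was 7.8 to 11.6 CPM, against 32.3 to 56.0 CPM in the 3 shallower WT libraries, and the fold change was -2.26 ± 0.25. The gap was thus smaller in the deeper libraries, but edgeR's test of the difference between the classes did not call it (adjusted p = 0.514). Unadjusted, Slc30a10 was under 0.05 in that test and ranked first of the 8 genes. That test was added after the values were seen. The groups did not overlap in either class, which follows from their lack of overlap over all 12 libraries. What else the depth classes share is not stated in the labels, and its part in the result was not tested. The lincRNA Gm2061 overlaps 9.13% of the exon bases of Slc30a10 on the opposite strand. It had 0 to 23 counts in KO and 7 to 31 in WT, against 178 to 728 counts of Slc30a10 in KO and 606 to 1135 in WT, and the strand setting of the counting is not given in the sources used here.

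**Figure D1:**
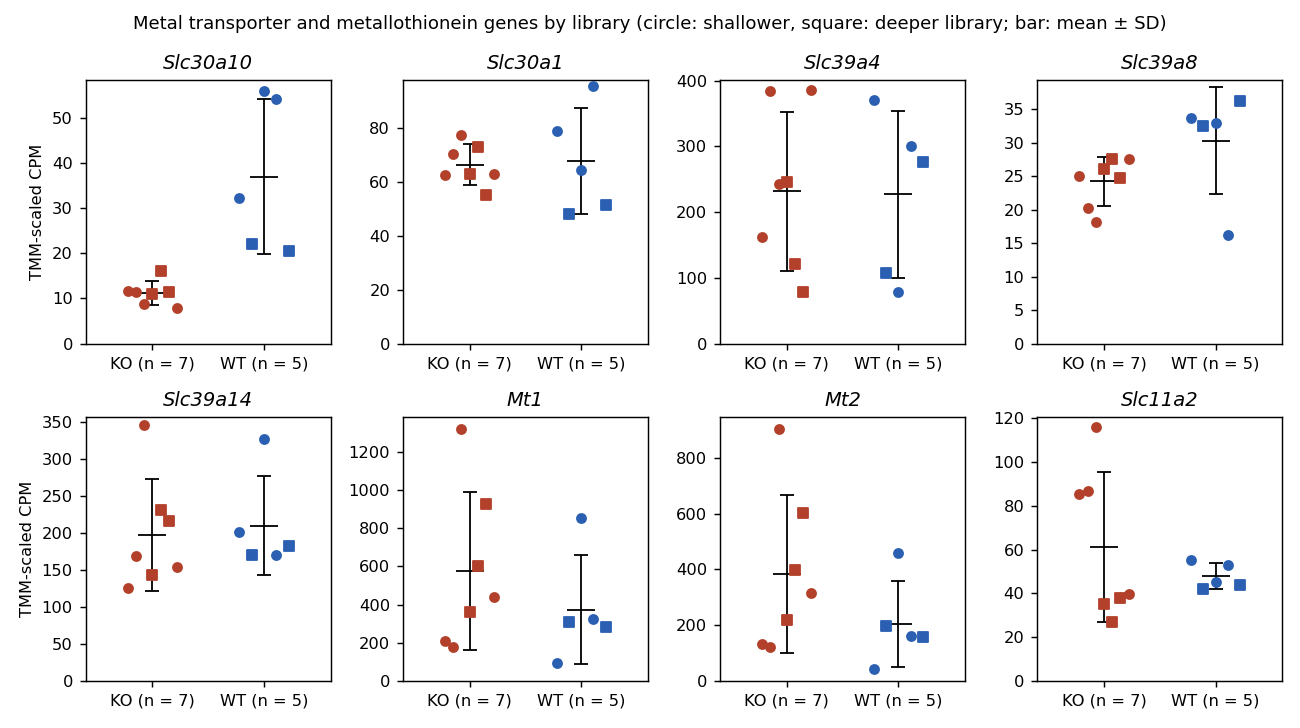
TMM-scaled CPM (vertical axes, from 0) of the 8 genes in each of the 7 KO (red) and 5 WT (blue) libraries, as circles (shallower) or squares (deeper), with bars for the mean ± SD. Slc30a10 is the gene whose groups do not meet, at 7.8 to 16.1 CPM in KO and 20.4 to 56.0 CPM in WT, and Slc11a2 has 3 KO libraries above and 4 below all WT libraries.

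None of the other 7 genes passed an adjusted p under 0.05 in edgeR's test, where 0.0% of all 14666 genes were called in either direction. At an unadjusted p under 0.05, 0 of the 7 passed, beside 14.7% of all genes (7.25% higher and 7.44% lower in KO). DESeq2, which called 3.41% of the genes to which it gave an adjusted p, called none of the 7 either. Limma-voom with sample weights called 14.6% of all genes and none of the 7. The groups were without overlap in 0 of the 7 genes, against 1.21% of all genes (0.634% higher, 0.58% lower). Of the 7, 4 had a positive and 3 a negative log2 fold change, with a median of 0.03, the same as the median over all genes tested.

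Slc30a1, the zinc exporter of the plasma membrane, had close means in both genotypes. It had 55.1 to 77.2 CPM in KO with a median of 63.0, against 78.7, 48.1, 64.2, 95.4 and 51.4 CPM in WT replicates 1 to 5. All KO libraries lay inside the WT range. Its log2 fold change was -0.03 ± 0.17 (SE), with an adjusted p of 0.950 in edgeR's test.

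Slc39a4, a zinc importer best known from the intestine, varied as much within each genotype as over all libraries. It had 78.9 to 386 CPM in KO with a median of 242, against 370, 108, 79.1, 301 and 276 CPM in WT. High and low libraries occurred in both genotypes, and the log2 fold change was 0.03 ± 0.46 (edgeR adjusted p = 0.983). Of 5 intestinal markers, Cdx2 had 0 counts in every library and Lct reached 0.0714 CPM at most. The other 3 were present in every library. Fabp2 had 4.43 to 88.7 CPM in KO and 11.6 to 86.6 CPM in WT. It was highest in KO replicate 2 and WT replicate 4, where Slc39a4 had 384 and 301 CPM. Slc39a4 itself was highest in KO replicate 7 (386 CPM) and WT replicate 1 (370 CPM), where Fabp2 had 16.5 and 33.8 CPM. Vil1 had 0.732 to 27.9 CPM in KO and 0.562 to 20.2 CPM in WT. Apoa4, which hepatocytes also express, had 56.2 to 7160 CPM in KO and 1290 to 8970 CPM in WT. The part of intestinal cells in the Slc39a4 level was not tested.

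Slc39a14, the importer of manganese, zinc and non-transferrin iron, had 126 to 346 CPM in KO with a median of 169, against 201, 170, 328, 170 and 183 CPM in WT. KO replicate 3 and WT replicate 3 were the highest libraries of their groups. Of the KO libraries 4 lay below all WT libraries, 1 above them and 2 inside their range. The log2 fold change was -0.09 ± 0.27 (edgeR adjusted p = 0.903), and without WT replicate 3 it was 0.14 ± 0.26.

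Slc39a8, a zinc and manganese importer of the same subfamily, had 18.1 to 27.6 CPM in KO with a median of 25.1, against 33.7, 32.5, 32.9, 16.2 and 36.2 CPM in WT. WT replicate 4 lay below all KO libraries and the other 4 WT libraries lay above all of them. The log2 fold change was -0.32 ± 0.19 (edgeR adjusted p = 0.435). Without WT replicate 4, left out in turn like every library, the value was -0.48 ± 0.13 (edgeR adjusted p = 0.220). WT replicate 4 was also the only WT library with Xist over 10 CPM, and with the Xist class in the fit the value was -0.03 ± 0.20. Its summed level of 9 hypoxia response genes was 1500 CPM, against 319 to 359 CPM in the other WT libraries and 267 to 733 CPM in KO. The part of these features in the Slc39a8 level was not tested.

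**Figure D2:**
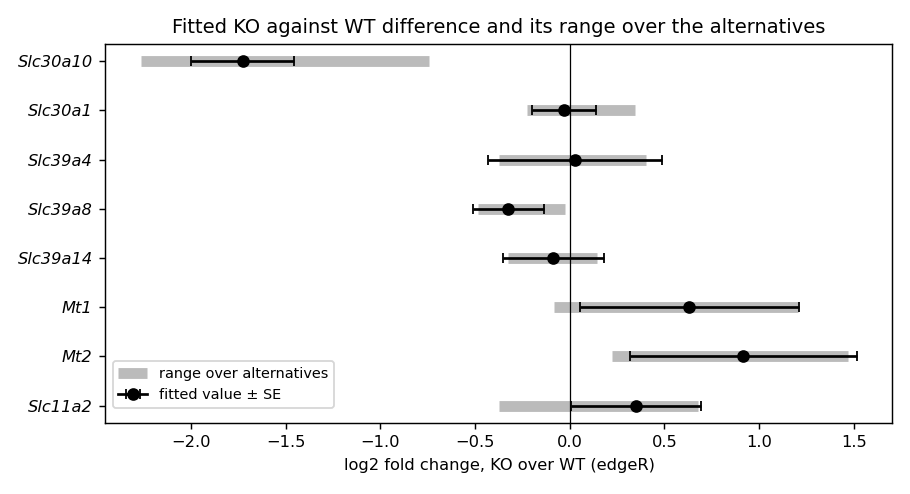
Log2 fold change of KO over WT (horizontal axis) for the 8 genes, as the edgeR value ± SE (black) and the range over the alternative fits (grey). The grey range stays below 0 for Slc30a10 (-2.26 to -0.74) and for Slc39a8 (-0.48 to -0.03) and above 0 for Mt2, and reaches 0 or crosses it for the other genes.

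The metallothioneins were the most variable of the 8 genes. Mt1 had 179 to 1320 CPM in KO with a median of 442, against 93.3, 308, 854, 324 and 281 CPM in WT. Mt2 had 120 to 904 CPM in KO with a median of 317, against 44.5, 196, 459, 160 and 158 CPM in WT. KO replicates 3 and 6 lay above all WT libraries for both genes, KO replicates 1 and 2 were the lowest of KO, and the ranges overlapped widely. The log2 fold change was 0.63 ± 0.58 for Mt1 and 0.92 ± 0.60 for Mt2 (edgeR adjusted p = 0.619 and 0.486). Over the 12 libraries the highest level was 14.2 times the lowest for Mt1 and 20.3 times for Mt2.

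Mt1 and Mt2 moved together across the libraries. After the mean of each genotype was subtracted, their log2 CPM correlated with Pearson's r = 0.995 and Spearman's rho = 0.972 over 12 libraries, and r = 0.993 without WT replicates 1 and 3, the libraries farthest from the median of Mt1. Slc39a14 followed Mt1 more loosely, with r = 0.738 and rho = 0.601, and r = 0.42 without KO replicate 3 and WT replicate 3, so that this relation rests largely on these libraries. These values describe libraries that share depth, scaling and cell makeup. Among the 14665 other genes tested, those whose genotype-centred levels were most like Mt1 were Mt2, Pfkfb4 (r = 0.906), Zfp174 (0.899), LOC108168049 (0.895) and Ocrl (0.89).

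Neutrophil markers were high in some of the same KO libraries. Their summed level was 1600 CPM in KO replicate 3, 383 in KO replicate 6 and 241 in KO replicate 4, against 26.1 to 39.1 CPM in the other KO libraries and 20.8 to 46.6 CPM in WT. KO replicate 5, at 30.1 CPM of neutrophil markers, had 600 CPM of Mt1, and KO replicate 4, at 241 CPM, had 362 CPM. Without KO replicates 3, 4 and 6, a choice made after seeing the data, the log2 fold change was -0.08 ± 0.59 for Mt1 and 0.22 ± 0.61 for Mt2. KO replicates 3 and 6 were the highest of KO for both genes, so leaving them out lowers these values in any case. In the same fit the log2 fold change of Slc30a10 was -1.68 ± 0.37. The summed acute phase genes ranged from 7920 to 24600 CPM in KO and from 9840 to 22700 CPM in WT. KO replicate 6 and WT replicate 3 were the highest of their groups. Hp and Fgb weigh most in this sum (9650 and 9690 CPM in WT replicate 3). Within WT, Hp, Fgb, Orm1, Lcn2 and Crp were highest in replicate 3, and Saa3 and Orm2 in replicate 2. Saa1 and Saa2 were highest of WT in replicate 4 (239 and 174 CPM), which had the lowest WT sum. The part of these signals in the metallothionein levels was not tested.

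**Figure D3:**
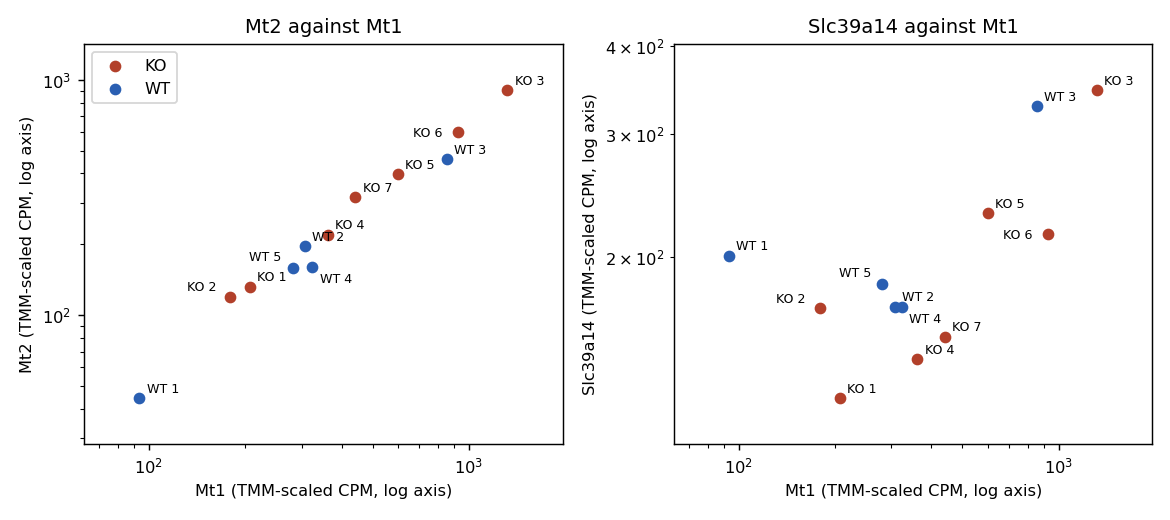
Mt2 (left) and Slc39a14 (right) against Mt1 in TMM-scaled CPM on logarithmic axes, 1 point per library, KO in red and WT in blue. Mt2 follows Mt1 closely in both genotypes (centred r = 0.995, n = 12), and KO 3 and WT 3 are the top points for Slc39a14.

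Slc11a2 (DMT1), the carrier of ferrous iron and manganese in endosomes and the gut, split the KO tumours. It had 85.3, 86.6 and 116 CPM in KO replicates 1, 2 and 3 and 35.1, 27.1, 37.8 and 39.9 CPM in KO replicates 4 to 7, against 55.3, 42.1, 45.1, 53.0 and 43.9 CPM in WT. The WT libraries lay between these KO libraries, so 3 KO libraries were above and 4 below all of WT. The log2 fold change was 0.35 ± 0.34 (edgeR adjusted p = 0.646). In the shallower libraries it was 0.68 and in the deeper ones -0.37, and the difference between the depth classes had an adjusted p = 0.518 in edgeR's test (-1.05 ± 0.45, unadjusted p = 0.0392). That comparison was added after the values were seen, and 0 of 14666 genes were called in it. Its unadjusted p was also under 0.05 for Slc30a10 (1.52 ± 0.37) and Slc30a1 (0.57 ± 0.26), with an adjusted p of 0.514 and 0.523 in edgeR's test. Of these genes Slc30a10 ranked first and Slc30a1 last. The share of all genes under that limit is not given for this comparison. Whether the 8 genes stand out in it can therefore not be told.

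The same 3 KO libraries were highest in Glul, the manganese-dependent glutamine synthetase of pericentral hepatocytes. Glul had 15900, 9400 and 11600 CPM in KO replicates 1, 2 and 3 and 31.7 to 555 CPM in the other KO libraries, against 116 to 2760 CPM in WT. Genotype-centred log2 CPM of Slc11a2 and Glul correlated with r = 0.899 and rho = 0.825 over 12 libraries, and with r = 0.854 without KO replicates 3 and 5. The pair was looked at after the values of Slc11a2 were seen. Summed erythroid markers, of a cell type that also uses Slc11a2, were at 242, 508 and 1410 CPM in KO replicates 1 to 3, at 26.8 to 521 CPM in KO replicates 4 to 7 and at 141 to 820 CPM in WT. The part of these cells in the Slc11a2 level was not tested.

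**Figure D4:**
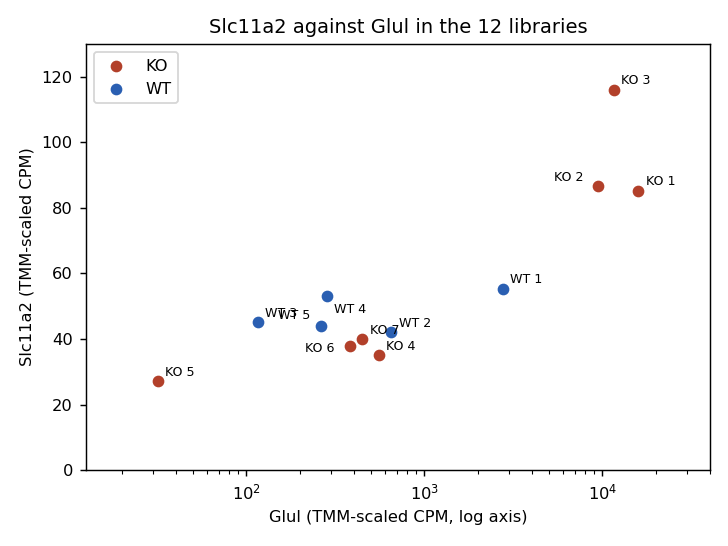
Slc11a2 (vertical axis, TMM-scaled CPM) against Glul (horizontal logarithmic axis) in the 12 libraries, KO in red and WT in blue. KO 1, KO 2 and KO 3 stand apart at 85.3 to 116 CPM of Slc11a2 and 9400 to 15900 CPM of Glul.

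The levels of Slc30a10 and of the other 7 genes shared little pattern. Over the 12 genotype-centred libraries its highest r was with Slc30a1 (r = 0.599, rho = 0.469, and r = 0.628 without WT replicates 3 and 5), and r was 0.174 with Mt1 and 0.108 with Mt2. Over the 7 KO libraries alone Slc30a10 and Slc30a1 had r = 0.0843 and rho = -0.0714, so the pooled value does not describe KO. The genes most like Slc30a10 after centring were Tmem170 (r = 0.881), Zfp397 (0.873), Ppp1r13b (0.865), Sh3gl1 (0.847) and Tcf3 (0.837). Over the libraries as they stand, where the genotype difference adds to r, they were Ankrd46 (r = 0.927), Tsen15 (0.909), Dnajb14 (0.898), Sh3pxd2a (0.893) and Nmrk1 (0.885). All 5 of these last genes had a negative log2 fold change, from -1.01 ± 0.27 for Nmrk1 to -0.36 ± 0.13 for Dnajb14. That sign largely follows from choosing genes by their likeness to Slc30a10, which was lower in KO.

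The wider set of metal genes was read from 6 lists of 55 genes in all, of which 47 were tested. In edgeR's test 0 of the 47 passed an adjusted p under 0.05. Of the 47 genes 1 was higher and 4 were lower in KO with an unadjusted p under 0.05, beside 14.7% of all genes. The median log2 fold change was -0.09 over the 47 genes, 17 of them positive and 30 negative, and 0.03 over all genes tested. Among other zinc exporters 0 of 6 tested genes had an unadjusted p under 0.05, and Slc30a4, a vesicular exporter, was at 0.60 ± 0.28 (adjusted p = 0.347). Slc30a3 was at 1.28 ± 0.72 and Slc30a9 at -0.22 ± 0.15.

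Slc39a6, a zinc importer, was the only other ZIP gene tested with an unadjusted p under 0.05. It had 7.05 to 13.0 CPM in KO with a median of 8.93, against 5.6, 5.77, 3.44, 6.57 and 6.68 CPM in WT. All KO libraries lay above all WT libraries, at a log2 fold change of 0.72 ± 0.21 (edgeR adjusted p = 0.211). Mtf1, the zinc sensor that drives metallothionein transcription, averaged 18.6 ± 1.77 CPM in KO (SD, n = 7; lowest 16.9, highest 22.2), against 31.1, 19.7, 24.5, 22.3 and 23.3 CPM in WT. Of the KO libraries 6 lay below all WT libraries, and the log2 fold change was -0.38 ± 0.12 (edgeR adjusted p = 0.232). Slc39a7 and Slc39a10 were at 1.09 ± 0.67 and -0.30 ± 0.23. Mt3 and Mt4 had too few counts to be tested.

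In the iron list 0 of 18 genes passed and 2 had an unadjusted p under 0.05, both lower in KO. Of all genes tested, 7.44% were lower in KO at that level, so 2 of 18 is not read as a result about the list. Slc40a1 (ferroportin), the iron exporter of hepatocytes and macrophages that also carries manganese, had 60.2 to 225 CPM in KO with a median of 102, against 188, 259, 241, 216 and 221 CPM in WT. KO replicate 6 lay inside the WT range and the other 6 KO libraries lay below it. Its log2 fold change was -0.99 ± 0.29 (edgeR adjusted p = 0.209). Without KO replicate 6, the KO library inside the WT range, it was -1.25 ± 0.22 and passed (edgeR adjusted p = 0.0399). In that fit 65 of 14450 genes passed, 51 of them lower in KO. Leaving out the only KO library that met the WT range separates the groups by itself, so this pass is no further support. Kupffer cells and macrophages express Slc40a1. Their summed markers were at 51.0 to 1550 CPM in KO (median 206) and 269 to 939 CPM in WT (median 688). KO replicate 6, at 1550 CPM, was here too the only KO library not below all WT libraries. The other KO libraries were at 51.0 to 222 CPM. The part of these cells in the Slc40a1 level was not tested. Tmprss6, the hepatocyte protease that restrains hepcidin, had 332 to 481 CPM in KO with a median of 379, against 455, 534, 657, 487 and 619 CPM in WT, at -0.48 ± 0.16 (edgeR adjusted p = 0.229). Ftl1, the ferritin light chain, was at -0.76 ± 0.36.

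**Figure D5:**
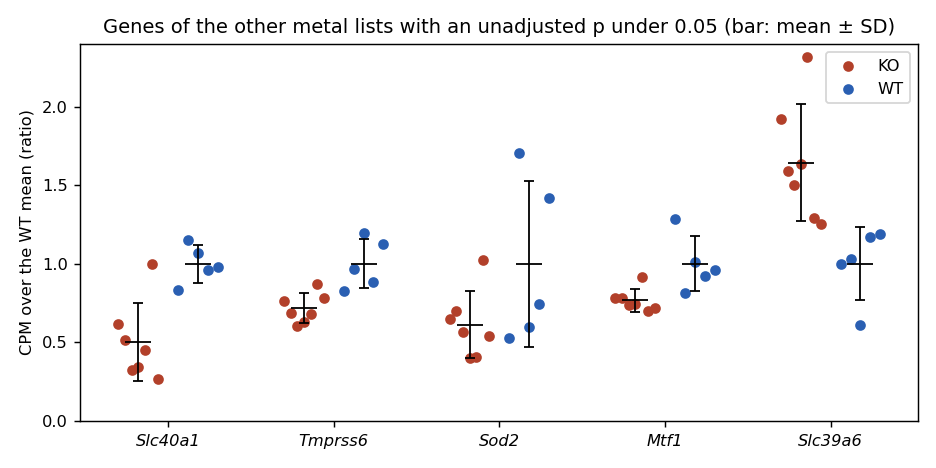
Level over the WT mean (vertical axis, ratio of TMM-scaled CPM) of the 5 genes of the other metal lists with an unadjusted p under 0.05, in KO (red) and WT (blue) libraries, with bars for the mean ± SD. Slc40a1 has 6 of 7 KO libraries below all WT libraries, and Slc39a6 has all 7 KO libraries above them.

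Of the manganese pumps and enzymes, Sod2, the mitochondrial manganese superoxide dismutase, was at -0.71 ± 0.33 (edgeR adjusted p = 0.339), with 79.7 to 203 CPM in KO and 105 to 339 CPM in WT, and the groups overlapped. Tmem165, a Golgi manganese and calcium transporter, was at 0.36 ± 0.18, and Glul at 2.75 ± 1.38. Among 8 copper genes 0 had an unadjusted p under 0.05. Slc31a1, the copper importer, was at -0.27 ± 0.14, Atox1, a copper chaperone, at -0.25 ± 0.20 and the copper pump Atp7a at -0.36 ± 0.32. Lists for 3 responses (acute phase, glucocorticoid and hypoxia) were read beside these, and 0 of their 22 tested genes had an unadjusted p under 0.05. In the acute phase list (0 of 9) Crp was at -0.46 ± 0.23, Saa3 at 1.26 ± 0.77 and Lcn2 at 0.83 ± 0.51. In the glucocorticoid list (0 of 5) Fkbp5 was at 1.30 ± 0.62, Tsc22d3 at -0.39 ± 0.22 and Tat at -0.61 ± 0.65. In the hypoxia list (0 of 8) Adm was at -1.83 ± 0.94, Vegfa at -0.58 ± 0.44 and Pdk1 at -0.34 ± 0.28, with WT replicate 4 the highest library for all 3 genes.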

How the data were processed

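Total RNA was extracted with Trizol and used where its RNA integrity number exceeded the labels' limit, and reads were aligned with HISAT2 to mm10, per the submitters' processing notes, which give no version. The authors deposited whole-number read counts for each gene, with no normalization. Which program counted them, with which strand setting and annotation, is not given in the sources used here. Libraries were grouped by genotype label (7 KO, 5 WT) and numbered in accession order. KO replicate 7 has a title that begins with KP and was kept in KO by that label. Libraries of a group differed by a chi-square of at least 71 per degree of freedom, so none was counted as a repeat.

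Genes were kept by filterByExpr (minimum count 10, minimum total 15), which left 14666 genes with 99.9% of the counts, and tested with edgeR 4.0.16 in R 4.3.3 (TMM scaling, robust quasi-likelihood F-test, KO against WT, no covariates, Benjamini-Hochberg over all genes at 0.05). Standard errors were taken as the size of the log2 fold change divided by the root of F. A prior count of 2 was added for log2 CPM. DESeq2 1.42.0, limma 3.58.1, other scalings and filters, depth class, Xist class and left-out libraries were alternatives. The fits were tested on simulated data. The 8 genes, the lists and the tests were chosen with earlier results of these data known. Named genes are the 8, Pck1, up to 3 per list with the smallest p, and the 5 most like Slc30a10 or Mt1 by Pearson's r. Hjv was matched as Hfe2. Promoters are from RefSeq (GRCm38.p6), and lengths and overlaps from GENCODE M21. Per-length levels divide by 1 transcript length and so assume 1 isoform. Counting noise is small for the 8 genes, at 178 counts or more in every library.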

Additional observations from a re-analysis of the deposited data

Results flagged for a closer look

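Each of the 8 genes was checked for a library far from the others of its group, in 16 groups of log2 CPM, and 2 stood out. Chance gives such a mark in about 1 of 20 groups. Slc39a8 in WT replicate 4 (16.2 CPM) lay below the other 4 WT libraries (32.5 to 36.2 CPM), with a gap of 0.868 of the group's range. Slc39a14 in WT replicate 3 (328 CPM) lay above the other 4 (170 to 201 CPM), with a gap of 0.745 of the range.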

How the results depend on the processing

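Over all genes, edgeR called 0 genes, against 489 with DESeq2, 2138 with limma-voom with sample weights, 3 with the depth class in the fit, 2 in the deeper libraries alone, 6 without the KO libraries rich in neutrophil markers, and 1 each with upper-quartile scaling, without a filter and when genes needed 1 CPM in 5 libraries. With 1 library left out the count ran from 0 to 65 (without KO replicate 6). Of the 8 genes, 1 was called, Slc30a10, by DESeq2, by limma-voom and without KO replicate 6 (0 to 1 over left-out libraries), and since its p in this contrast chose it this is no further support. Of the 69 genes tested in the other lists, DESeq2 called 3 (Slc39a6, Slc40a1, Tmprss6) and limma-voom 7, beside 3.41% and 14.6% of all genes. With 1 library left out, 0 to 1 genes of these lists were called. The Slc30a10 value kept its sign in all 23 alternative fits (-2.26 to -0.74). This is no further support either, since groups that do not overlap leave little room for a turned sign. For the other 7 genes 144 of 161 values kept their sign and 0 had an adjusted p under 0.05. Turned signs were 0.22 (limma-voom), 0.0107 (depth class) and 0.35 (deeper libraries) for Slc30a1, -0.0228 (depth class) and -0.37 (deeper libraries) for Slc39a4, 0.15 (deeper libraries) for Slc39a14, -0.0476 (Xist class) and -0.37 (deeper libraries) for Slc11a2, and -0.0844 for Mt1 without the KO libraries rich in neutrophil markers. Over left-out libraries the values ran from -0.13 to 0.13 for Slc30a1, from -0.18 to 0.27 for Slc39a4 and from -0.28 to 0.14 for Slc39a14. The cause was not tested. No paired analysis was possible because the replicate numbers were given in accession order and pair no libraries.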

Other observations

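The balance between the neighbouring metallothionein genes was a value of each library that does not depend on its scaling. Mt2 counts over Mt1 counts were 0.638, 0.669, 0.685, 0.607, 0.662, 0.649 and 0.716 in KO replicates 1 to 7, against 0.478, 0.636, 0.538, 0.494 and 0.562 in WT replicates 1 to 5. The mean was 0.661 ± 0.0349 in KO and 0.542 ± 0.0625 in WT (SD, n = 7 and 5), and 6 of 7 KO libraries lay above all WT libraries. The ratio was looked at after the values of both genes were seen, and an exact two-sided permutation test of its log2 mean difference (0.29) over 792 regroupings gave p = 0.00505. The annotated antisense gene Gm45774 overlaps 73.5% of the exon bases of Mt2 on the opposite strand and has no row in the count table, so reads from it could have been counted as Mt2. Its part in the ratio was not tested. Mt1 shares no stretch of 50 bases with any transcript of another annotated gene.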
